A study of Homo sapiens with 9 samples.

Results

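The transcripts described here came from 44 genes that repair DNA or govern the response to platinum drugs, picked by gene symbol out of the 58676 genes counted in OVCA433 cells. OVCA433 is an established line of human ovarian serous adenocarcinoma. The cells carried an shRNA Control vector (genotype labelled WT), shRNA#1-MPZL3 or shRNA#3-MPZL3 (genotype labelled MPZL3 knock-down), with replicates A, B and C in each of the 3 groups and 9 libraries in all. All cells, the control included, had been transduced with lentivirus and selected with puromycin, and the labels name no DNA-damaging drug. The knockdown cells were selected cultures rather than clones, and because the study's methods call the control both an empty vector and a scrambled shRNA, what it expressed is uncertain. The rule for the members was a list of gene symbols. They comprised 10 genes of homologous recombination, 9 of the Fanconi anemia pathway, 6 of nucleotide excision repair, 2 of mismatch repair, 6 of checkpoint signalling, 4 of base excision and single-strand break repair, 6 of end joining and 1 of direct reversal.

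Cisplatin and carboplatin join neighbouring bases within a DNA strand or tie opposite strands together. Nucleotide excision repair cuts out the adducts within a strand, whereas crosslinks between strands are unhooked by the Fanconi anemia proteins and finished by homologous recombination, which copies the broken ends from the sister chromatid. The kinases ATM and ATR sense breaks and stalled forks and signal through CHEK2 and CHEK1. PARP1 marks strand breaks and is the target of olaparib and related inhibitors used in ovarian cancer. Because many of these genes are transcribed mainly in dividing cells, their levels in a culture also follow how many cells are in S phase.

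Library totals ranged from 16850854 to 23890191 counts. MPZL3, the target of the hairpins, stood at 15.59, 21.9 and 21.03 CPM (counts relative to library size, scaled with edgeR's TMM factors) in the control libraries. It stood at 1.869, 1.984 and 1.801 CPM with hairpin 1 and at 1.942, 0.9876 and 1.795 CPM with hairpin 3. Every knockdown library was below every control library, with a log2 fold change of -3.37 (SE 0.219, adjusted p = 6.065e-08) for hairpin 1 and -3.62 (SE 0.227, adjusted p = 4.704e-08) for hairpin 3. The ovarian marker PAX8 was present in all groups (means of 96.99, 199.9 and 207.3 CPM), WT1 had no count in any library, and the epithelial cadherin CDH1 averaged 275.3 CPM in control and 0.112 and 0.1484 CPM with hairpins 1 and 3. The summed level of 14 epithelial markers was 11930 to 14890 CPM in control, 5425 to 6948 CPM with hairpin 1 and 5399 to 6096 CPM with hairpin 3. Against this sum, PAX8, SOX17 (means of 14.34, 28.17 and 27.64 CPM) and MSLN (68.39, 85.89 and 148.9 CPM) were higher with both hairpins. The summed level of 9 fibroblast markers was 19.01 to 23 CPM, 109.7 to 446.8 CPM and 502.9 to 871.1 CPM in the same order, with DCN at 0 in every library. COL1A1 made up most of it (means of 17.88, 312.2 and 641.2 CPM), whereas FAP was lower with the hairpins (0.55, 0.3515 and 0.1291 CPM). In that order 6 mesothelial markers summed to 137.1 to 171.6, 94.44 to 110.8 and 234.4 to 279.7 CPM, and 5 endothelial markers to 0.9456 to 1.646, 4.86 to 7.246 and 6.035 to 8.516 CPM. The mesothelial markers went different ways, with UPK3B at means of 57.19, 0.5408 and 0.7456 CPM and PDPN at 12.64, 0.2704 and 78.07 CPM. The 6 leukocyte markers summed to at most 1.353 CPM in any library, with LYZ at 0. The part of these shifts in the results on repair genes was not tested, and in bulk RNA fewer cells of a type and less RNA per cell cannot be told apart.

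All 44 members were expressed in all 3 groups and passed the filter on low counts. The smallest count of any member in any library was 27, for ERCC5. Levels can be compared between genes only per length, and on the scale of CPM per kb of gene model the control means ran from 0.258 for ERCC5 to 133 for XRCC6, with a median of 4.76. The highest levels belonged to the DNA ends machinery. XRCC6 and XRCC5, which form the Ku ring that binds broken ends, stood at 133 and 106 CPM per kb in control, PARP1 at 56.6 and PRKDC, the kinase recruited by Ku, at 32.6. BRCA1 (4.56 CPM per kb) was close to the middle of the list, BRCA2 (3.36 CPM per kb) was lower, and ATM (1.86 CPM per kb), FANCM, ERCC4 and RAD51D were near its lower end. The median stood at 4.57 CPM per kb with hairpin 1 and 4.11 CPM per kb with hairpin 3.

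**Figure D1:**
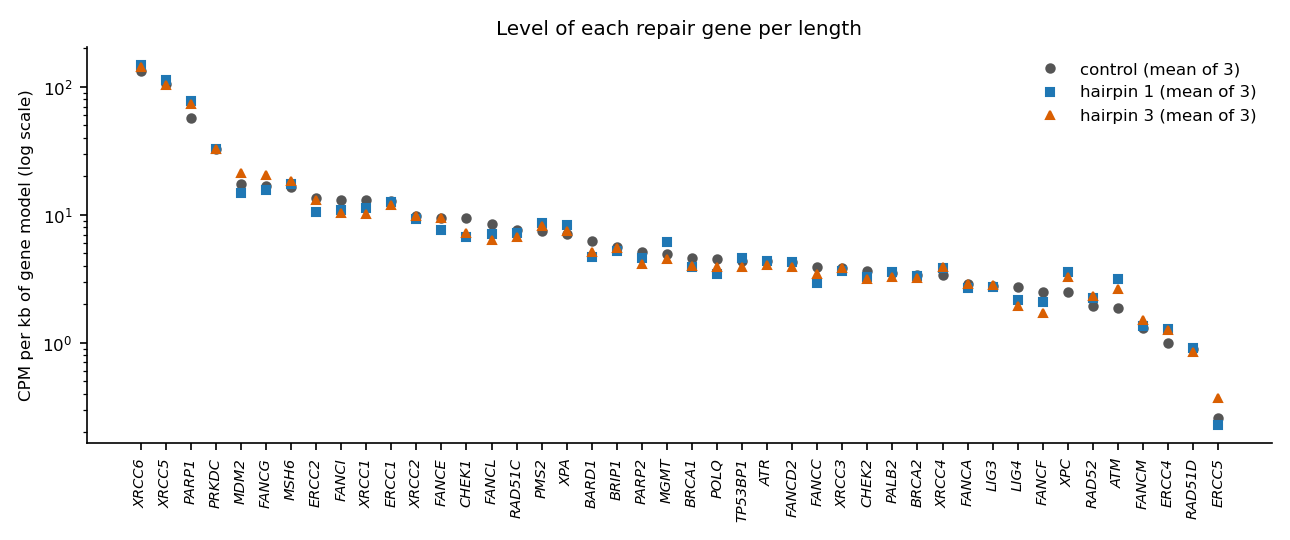
Mean level of each of the 44 repair genes in CPM per kb of gene model (log axis) in control, hairpin 1 and hairpin 3 libraries, 3 libraries per point, ordered by the control level. XRCC6, XRCC5, PARP1 and PRKDC lead in all 3 groups and ERCC5 is lowest, from 0.226 to 0.366 CPM per kb, while the points of the 3 groups lie close together for most genes.

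MPZL3 knockdown left most of these genes near their control level. With both hairpins pooled into 1 arm of 6 libraries, 5 of the 44 members passed an adjusted p of 0.05 in the quasi-likelihood test of edgeR, adjusted by Benjamini-Hochberg over 15975 genes, which was 11.4% of the members against 33.0% of all genes tested. ATM, XPC and PARP1 rose, where 15.9% of all tested genes rose, and CHEK1 and XRCC1 fell, where 17.0% of all tested genes fell. No member also reached an absolute log2 fold change of 1, whereas 14.7% of all tested genes did. The largest changes of a member in either direction were 0.63 for ATM and -0.44 for CHEK1 on the log2 scale. The median log2 fold change over the members was -0.04, beside 0.00 over all tested genes, and 15 members differed from control by less than 0.1.

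The hairpins were then compared with control separately, in a model with 3 groups. Hairpin 1 changed 5 members (11.4%, against 37.8% of all tested genes), of which ATM, XPC and PARP1 rose and CHEK1 and FANCC fell. Hairpin 3 changed 6 members (13.6%, against 34.7% of all tested genes), of which ATM, XPC and PARP1 rose and CHEK1, XRCC1 and FANCF fell. These comparisons share the control libraries. 3 members rose in the pooled comparison and with each hairpin (ATM, XPC and PARP1), a pattern held by 12.0% of all tested genes, and 1 member (CHEK1) fell in all of them, as did 13.2% of all tested genes. Between the hairpins 2 members differed, MDM2 and FANCG, which was 4.55% of the members against 11.6% of all tested genes. The other 35 members passed in none of these 4 comparisons. Deviations of same-letter libraries correlated above 0.1 in both comparisons that involve hairpin 3 (at least 0.339 with control and 0.121 with hairpin 1). Both were therefore also fitted with the letter as a block. Libraries of different letters in different groups correlated at -0.672 to 0.327. Between the hairpins the B libraries (0.121) correlated less than hairpin 1 library B with hairpin 3 library C (0.291). The block has weaker ground there. The block gave 15 members for hairpin 3 against control, where 45.6% of all tested genes passed, and 5 between the hairpins, where 23.1% passed. The members that passed only with the block are given with their pathways. Of these, BRCA1, BARD1, FANCI and POLQ also fell with hairpin 1 under the block. Their log2 fold changes were -0.23, -0.40, -0.27 and -0.39 (adjusted p = 0.03621, 0.0006896, 0.0173 and 0.0006499 by edgeR's test). Without the block the same genes did not pass with hairpin 1 (adjusted p = 0.2357, 0.07959, 0.2767 and 0.1778 by edgeR's test). None of them differed detectably between the hairpins under the block (adjusted p from 0.1019 to 0.9553). For hairpin 1 the block is not read as a pairing, since its same-letter correlation with control fell to 0.064.

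**Figure D2:**
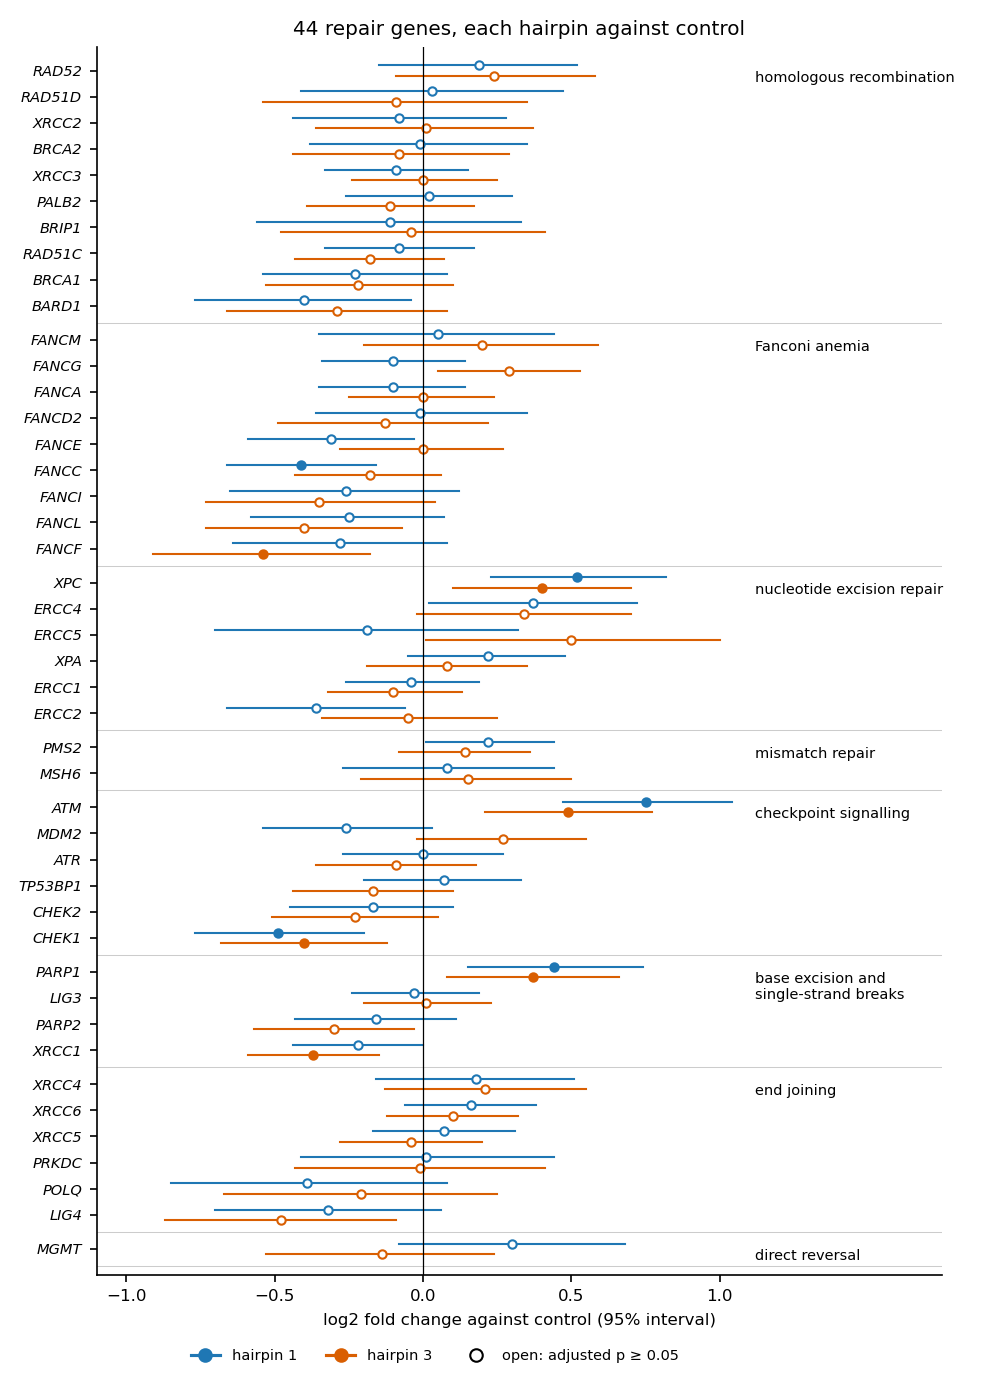
Log2 fold change against control of each of the 44 repair genes with hairpin 1 (blue) and hairpin 3 (orange), with 95% intervals from edgeR's fit, grouped by pathway, with filled points where the adjusted p was below 0.05. Only ATM, XPC, PARP1 and CHEK1 have filled points for both hairpins, and no point lies beyond 1 on either side.

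A gene that misses the threshold is not thereby shown to be unchanged, so the intervals were read as well. In the pooled comparison the 95% interval of the fold change stayed within 1.5-fold of control in either direction for 32 of 44 members (72.7%, against 40.5% of all tested genes) and within 2-fold for 44 of 44 (65.3% of all tested genes). For hairpin 1 and hairpin 3 alone, 43 of 44 members stayed within 2-fold. The exceptions were ATM with hairpin 1, with an upper bound of 1.04 on the log2 scale, and ERCC5 with hairpin 3, with an upper bound of 1.00. In the libraries themselves, the 6 knockdown libraries lay above all 3 control libraries for 4 members (ATM, XPC, PARP1 and ERCC4), a pattern held by 15.5% of all tested genes, and below them for 2 (CHEK1 and FANCF), against 17.6% of all tested genes. The groups overlapped for the other 38.

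Among the checkpoint genes, ATM rose with both hairpins and CHEK1 fell with both. ATM (ENSG00000149311, chr11:108222484-108369102, plus strand, GRCh38), the kinase that senses double-strand breaks, stood at 43.2, 41.61 and 39.81 CPM in control, 59.53, 86.84 and 63.75 CPM with hairpin 1 and 54.49, 61.67 and 58.96 CPM with hairpin 3. All 6 knockdown libraries were higher than the highest control library, and hairpin 1 library B was far above the other 5. The pooled level was 1.55-fold that of control (log2 0.63, SE 0.136, adjusted p = 0.003874), with 0.75 (SE 0.131, adjusted p = 0.0004771) for hairpin 1 and 0.49 (SE 0.131, adjusted p = 0.01023) for hairpin 3. The hairpins did not differ detectably for ATM (log2 -0.26, 95% interval -0.54 to 0.02, adjusted p = 0.2366). ATM was the only member called in the pooled comparison under all 17 alternatives to the fit, with adjusted p-values from 0.0001141 to 0.02421.

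CHEK1 (ENSG00000149554, chr11:125625136-125676255, plus strand), the kinase that ATR activates at stalled forks, stood at 68.81, 60.82 and 55.24 CPM in control. It was at 47.71, 41.51 and 42.7 CPM with hairpin 1 and at 53.14, 49.38 and 37.88 CPM with hairpin 3. All 6 knockdown libraries were below the lowest control library. The pooled level was 73.6% of control (log2 -0.44, SE 0.116, adjusted p = 0.01178), with -0.49 (adjusted p = 0.009808) for hairpin 1 and -0.40 (adjusted p = 0.03051) for hairpin 3. Without control library A, which held the highest value, the pooled adjusted p was 0.06891. The call with hairpin 3 was lost without control library A or B or hairpin 3 library B or C (adjusted p from 0.05168 to 0.143). Genes near CHEK1 on chromosome 11 had a median log2 fold change of -0.29 in the same comparison.

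MDM2 (ENSG00000135679, chr12:68808172-68850686, plus strand), a ubiquitin ligase that restrains the transcriptional damage response, moved apart between the hairpins. It stood at 252.2, 205.8 and 240 CPM in control, 200.4, 214.7 and 169.6 CPM with hairpin 1 and 333, 251.4 and 256.2 CPM with hairpin 3. Every hairpin 3 library was above every hairpin 1 library, and both sets overlapped the control range. MDM2 was 1.44-fold higher with hairpin 3 than with hairpin 1 (log2 0.52, SE 0.132, adjusted p = 0.02056), whereas neither hairpin passed against control (log2 -0.26, adjusted p = 0.1485 for hairpin 1, and 0.27, adjusted p = 0.1399 for hairpin 3). With the letter as a block the adjusted p against control was 0.04023 for hairpin 3 and 0.04235 for hairpin 1, where the block is not read as a pairing. Without hairpin 3 library A the adjusted p between the hairpins was 0.06969, and without hairpin 1 library C it was 0.09225. Genes around MDM2 had a median difference of 0.18 between the hairpins. The summed mesothelial markers also differed between hairpins 1 and 3 (94.44 to 110.8 and 234.4 to 279.7 CPM). That difference lay mainly in PDPN (means of 0.2704 and 78.07 CPM) and MSLN (85.89 and 148.9 CPM), while UPK3B was low with both (0.5408 and 0.7456 CPM). The part of these markers in the differences of MDM2 and FANCG was not tested.

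ATR, CHEK2 and TP53BP1 did not pass in any comparison. ATR, the kinase at stalled forks, had a pooled log2 fold change of -0.05 (95% interval -0.29 to 0.20), with group means of 54.16, 54.12 and 50.87 CPM. CHEK2, the kinase downstream of ATM, was at -0.20 (-0.45 to 0.04) and TP53BP1, which protects broken ends from resection, at -0.05 (-0.32 to 0.23). Of the exon bases of TP53BP1, 28.7% also lie in TUBGCP4 on the other strand.

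**Figure D3:**
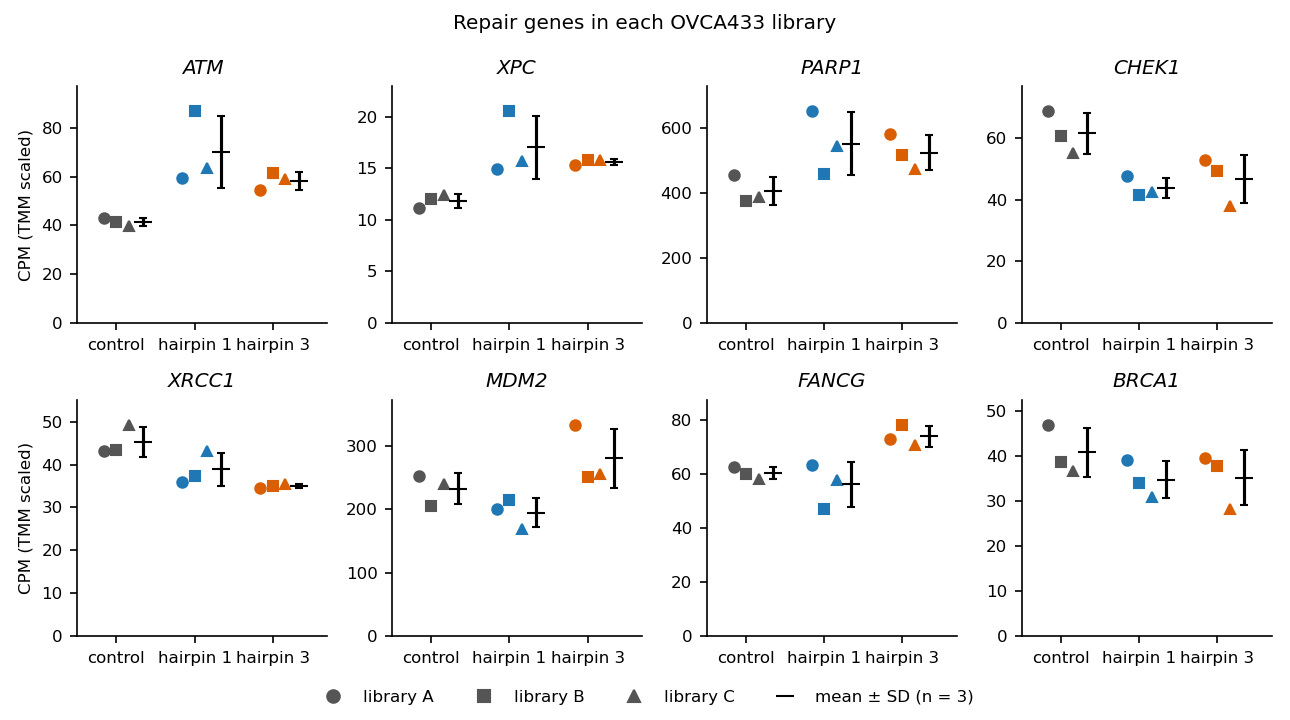
CPM in each library for ATM, XPC, PARP1, CHEK1, XRCC1, MDM2, FANCG and BRCA1, with axes starting at 0, symbols for libraries A, B and C and the mean ± SD of 3 libraries per group in black. ATM, XPC and PARP1 have all 6 knockdown libraries above control, CHEK1 has all 6 below, MDM2 and FANCG separate hairpin 3 from hairpin 1, and BRCA1 overlaps between groups.

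Of the 4 genes of base excision and single-strand break repair, PARP1 rose and XRCC1 fell. PARP1 (ENSG00000143799, chr1:226360691-226408079, minus strand) stood at 455.3, 374.7 and 386.8 CPM in control, 651.2, 459.2 and 545.7 CPM with hairpin 1 and 581.4, 517.6 and 474.1 CPM with hairpin 3. The lowest knockdown library was only just above the highest control library. The pooled level was 1.33-fold that of control (log2 0.41, SE 0.123, adjusted p = 0.02363), with 0.44 (adjusted p = 0.01951) for hairpin 1 and 0.37 (adjusted p = 0.04929) for hairpin 3. The call was lost without control library B (adjusted p = 0.1212) and without control library C (adjusted p = 0.09871). The call with hairpin 1 was lost without those libraries or hairpin 1 library A (adjusted p from 0.071 to 0.08901). The call with hairpin 3 was lost in 6 of 17 alternatives, namely scaling by library totals and leaving out control library B or C, hairpin 1 library C or hairpin 3 library A or B (adjusted p from 0.05325 to 0.1817).

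XRCC1 (ENSG00000073050, chr19:43543040-43580473, minus strand), the scaffold that gathers ligase and polymerase at strand breaks marked by PARP1, stood at 43.1, 43.45 and 49.22 CPM in control, 36.03, 37.39 and 43.22 CPM with hairpin 1 and 34.6, 35 and 35.44 CPM with hairpin 3. The hairpin 3 libraries lay below all others, and hairpin 1 library C reached the control range. XRCC1 differed by -0.29 on the log2 scale in the pooled arm (SE 0.095, adjusted p = 0.03351), by -0.22 (adjusted p = 0.11) for hairpin 1 and by -0.37 (adjusted p = 0.01254) for hairpin 3, and the hairpins did not differ detectably (log2 -0.15, 95% interval -0.37 to 0.07, adjusted p = 0.4099). The pooled call held in 8 of 17 alternatives, and was lost when any 1 control library, any 1 hairpin 3 library or hairpin 1 library A was left out (adjusted p from 0.05046 to 0.1577). Genes near XRCC1 on chromosome 19 had a median log2 fold change of -0.19. PARP2, the second enzyme of the PARP family that responds to breaks, was at -0.23 (95% interval -0.48 to 0.02, adjusted p = 0.1509), and passed with hairpin 3 only with the letter as a block (-0.30, adjusted p = 0.04733 against 0.08587 without). LIG3, the ligase that XRCC1 carries, was at -0.01 (-0.20 to 0.18), and 29.1% of its exon bases lie in RFFL on the other strand.

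In nucleotide excision repair the damage sensor XPC rose and no other member passed. XPC (ENSG00000154767, chr3:14145147-14178783, minus strand), which recognises distorted DNA ahead of the other factors, stood at 11.09, 11.99 and 12.43 CPM in control. It was at 14.91, 20.5 and 15.65 CPM with hairpin 1 and at 15.3, 15.75 and 15.83 CPM with hairpin 3, so that all 6 knockdown libraries exceeded control and 5 of them lay close together. The pooled level was 1.38-fold that of control (log2 0.46, SE 0.126, adjusted p = 0.01432), with 0.52 (adjusted p = 0.008457) for hairpin 1 and 0.40 (adjusted p = 0.03776) for hairpin 3. Without control library A or B the pooled adjusted p was 0.06206 or 0.05431. The call with hairpin 3 held in 9 of 17 alternatives and was lost when any 1 control or hairpin 3 library was left out (adjusted p from 0.06169 to 0.1032). Of the exon bases of XPC, 23.8% also lie in the antisense gene AC093495.1, and since the libraries kept no strand the reads of the pair cannot be told apart there. Whether reads in shared exons were counted for 1 gene, for both or for none is not given in the sources used here.

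ERCC1, which forms with ERCC4 the nuclease that cuts beside platinum adducts and has been studied as a marker of platinum response, stood at 70.6, 67.43 and 77.27 CPM in control, 69.06, 66.13 and 74.9 CPM with hairpin 1 and 62.9, 62.82 and 75.67 CPM with hairpin 3. These ranges overlapped, and the pooled log2 fold change was -0.07 (SE 0.0916, 95% interval -0.27 to 0.13, adjusted p = 0.6302). Of its exon bases 28.6% lie in CD3EAP on the other strand, and of those of ERCC4 25.7% lie in AC010401.1. ERCC4 was higher in all 6 knockdown libraries (9.65 to 12.51 CPM) than in control (7.025 to 9.306 CPM), but its log2 fold change of 0.35 (SE 0.147) did not pass (adjusted p = 0.08574). ERCC2, a helicase that opens the damaged strand, was at -0.19 (95% interval -0.51 to 0.12) and was higher with hairpin 3 than with hairpin 1 only with the letter as a block (0.30, adjusted p = 0.006869 against 0.1833 without). XPA, which verifies the lesion, was at 0.15 (-0.10 to 0.40). ERCC5, the nuclease on the other side of the lesion, averaged 1.719 CPM in control libraries, 1.505 CPM in those of hairpin 1 and 2.439 CPM in those of hairpin 3, and its difference of 0.69 between the hairpins (SE 0.233) did not pass (adjusted p = 0.07393). Of its exon bases, 54.6% are shared with the read-through gene BIVM-ERCC5.

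The promoters of ATM, PARP1 and XPC are shown because these were the genes that rose with both hairpins. Each run gives the 250 bases before and 50 bases after a RefSeq start site on GRCh38 in the direction of transcription, with 3 kinds of element in capitals on either strand. They are CCAAT boxes (CCAAT), the cell cycle homology element (TTTGAA) and E2F-type sites (TTTCCCGC, TTTGGCGC, TTTCGCGC or TTTGCCGC).
ATM (chr11:108222817-108223116, plus strand): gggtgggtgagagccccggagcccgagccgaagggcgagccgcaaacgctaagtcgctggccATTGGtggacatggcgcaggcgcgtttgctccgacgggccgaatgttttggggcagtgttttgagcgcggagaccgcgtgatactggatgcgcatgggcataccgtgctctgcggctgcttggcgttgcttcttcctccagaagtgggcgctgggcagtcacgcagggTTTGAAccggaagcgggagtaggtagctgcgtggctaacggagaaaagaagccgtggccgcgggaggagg
PARP1 (chr1:226408044-226408343, minus strand): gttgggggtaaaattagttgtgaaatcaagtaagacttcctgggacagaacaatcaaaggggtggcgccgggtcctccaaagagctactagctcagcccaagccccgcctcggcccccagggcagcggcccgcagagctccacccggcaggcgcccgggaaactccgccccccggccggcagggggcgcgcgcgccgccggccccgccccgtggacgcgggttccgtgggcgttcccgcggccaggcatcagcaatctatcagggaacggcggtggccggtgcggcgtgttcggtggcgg
XPC (chr3:14178552-14178851, minus strand): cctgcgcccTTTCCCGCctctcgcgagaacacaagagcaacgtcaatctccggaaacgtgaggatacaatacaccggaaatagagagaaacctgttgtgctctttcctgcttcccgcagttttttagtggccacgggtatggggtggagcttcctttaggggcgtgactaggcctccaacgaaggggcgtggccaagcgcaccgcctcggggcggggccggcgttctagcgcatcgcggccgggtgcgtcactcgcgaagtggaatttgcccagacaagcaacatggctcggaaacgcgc
The ATM run held 1 CCAAT box and 1 TTTGAA, the XPC run 1 E2F-type site and the PARP1 run none of the 3 elements. Of the 44 members, 35 had an entry within 1000 bases of the start in the count table, and E2F-type sites occurred in 8 of these (22.9%), namely FANCA, FANCC, FANCD2, MDM2, PMS2, XPC, XRCC2 and XRCC6, against 5.5% of the promoters of 9177 tested genes and 3.3% of all 35116 promoters listed. TTTGAA occurred in 11.4% of the members' promoters against 9.4% of those of tested genes and 15.2% of all, CCAAT in 40.0% against 36.7% and 34.6%, the GC box GGGCGG in 74.3% against 71.4% and 45.0%, and the cyclic AMP element TGACGTCA in 11.4% against 3.2% and 1.8%. These elements were searched on both strands and are matches of letters only. Of the 8 members with an E2F-type site, XPC rose in the pooled comparison and the other 7 did not pass. CHEK1 and XRCC1, which fell, had no entry within 1000 bases, so their promoters were not searched.

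None of the 10 genes of homologous recombination passed in any of the 4 comparisons without a block, and with the letter as a block BRCA1 (-0.22, adjusted p = 0.04833) and BARD1 (-0.28, adjusted p = 0.009694) fell with hairpin 3. BRCA1 stood at 46.83, 38.72 and 36.61 CPM in control, 39.16, 34.03 and 30.91 CPM with hairpin 1 and 39.48, 37.75 and 28.12 CPM with hairpin 3. The groups overlapped, with library A highest in each, and the pooled log2 fold change was -0.22 (SE 0.128, 95% interval -0.50 to 0.06, adjusted p = 0.2104). BRCA2, which loads the recombinase onto single-stranded ends, stood at 48.13, 38.37 and 37.23 CPM in control, 49.77, 39.12 and 33.7 CPM with hairpin 1 and 44.6, 42.14 and 30.7 CPM with hairpin 3. Its groups were nearly superimposed (log2 -0.04, SE 0.151, 95% interval -0.37 to 0.28, adjusted p = 0.8537).

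Transcripts of the other homologous recombination genes ran from -0.34 to 0.21 in the pooled comparison. BARD1, which pairs with BRCA1 in its ubiquitin ligase, had the lowest pooled value of the group at -0.34 (95% interval -0.68 to -0.01, adjusted p = 0.1096), with means of 37.47, 28.33 and 30.76 CPM. PALB2, the bridge between BRCA1 and BRCA2, was at -0.05 and BRIP1, a helicase that binds BRCA1, at -0.07. The recombinase paralogs RAD51C, RAD51D, XRCC2 and XRCC3 were at -0.13, -0.03, -0.04 and -0.04, and RAD52, which anneals single strands, was at 0.21 (95% interval -0.08 to 0.51). Of the exon bases of XRCC3, 76.7% lie in KLC1 on the other strand, so its value is uncertain.

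In the Fanconi anemia pathway no member passed in the pooled comparison, FANCC fell with hairpin 1, FANCF fell with hairpin 3 and FANCG differed between the hairpins. With the letter as a block FANCG (0.30, adjusted p = 0.01617), FANCI (-0.34, adjusted p = 0.003972) and FANCL (-0.39, adjusted p = 0.02035) also passed with hairpin 3, and FANCE between the hairpins (0.30, adjusted p = 0.04992). FANCD2, the protein that is monoubiquitinated at crosslinks, stood at 40.34, 33.49 and 34.03 CPM in control, 39.77, 35.15 and 32.41 CPM with hairpin 1 and 41.66, 32.54 and 24.44 CPM with hairpin 3. The ranges overlapped (pooled log2 -0.07, SE 0.15, adjusted p = 0.7724). FANCG (ENSG00000221829, chr9:35073835-35080016, minus strand), a subunit of the core ubiquitin ligase complex, stood at 62.76, 60.07 and 58.3 CPM in control, 63.55, 47.31 and 57.92 CPM with hairpin 1 and 72.97, 78.24 and 70.75 CPM with hairpin 3. The hairpin 3 libraries were above all others. FANCG was 1.31-fold higher with hairpin 3 than with hairpin 1 (log2 0.39, SE 0.11, adjusted p = 0.0341), but hairpin 3 did not pass against control (0.29, adjusted p = 0.05546), and genes around it differed by a median of 0.20. The difference between the hairpins lost its call when control library B or any hairpin library other than hairpin 1 library A was left out (adjusted p from 0.05706 to 0.1484). In the pooled arm FANCG was at 0.11 (SE 0.139, adjusted p = 0.5949).

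Among the other core complex genes, FANCC fell with hairpin 1 to 75.3% of control (means of 30.97 and 23.31 CPM, log2 -0.41, SE 0.114, adjusted p = 0.01173) and stood at -0.18 with hairpin 3 (adjusted p = 0.2481). FANCF fell with hairpin 3 to 68.7% of control (means of 10.71 and 7.326 CPM, log2 -0.54, SE 0.169, adjusted p = 0.02353) and stood at -0.28 with hairpin 1 (adjusted p = 0.2125). The hairpins themselves did not differ detectably for either gene (adjusted p = 0.241 for FANCC and 0.3817 for FANCF). Without control library B, control library C, hairpin 3 library A or hairpin 3 library B, FANCF no longer passed with hairpin 3 (adjusted p from 0.05196 to 0.08414). FANCL, the ligase subunit that attaches ubiquitin, was at -0.32 in the pooled comparison (adjusted p = 0.09208), FANCI, the partner of FANCD2, at -0.30 (adjusted p = 0.1732), FANCE, which links the core complex to FANCD2, at -0.15, FANCA, another core subunit, at -0.05 and FANCM, the translocase that anchors the complex to DNA, at 0.13.

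The mismatch repair genes MSH6, which recognises mispaired bases, and PMS2, an endonuclease of the same pathway, were at 0.11 (95% interval -0.21 to 0.44) and 0.18 (-0.02 to 0.38). Reads of PMS2, CHEK2 and FANCD2 can also match pseudogene copies, so these values are uncertain.

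In end joining no member passed in any comparison without a block, and with the letter as a block LIG4 (-0.47, adjusted p = 0.00939) and POLQ (-0.20, adjusted p = 0.04326) fell with hairpin 3. POLQ, the polymerase of the pathway that joins ends through short homologies, stood at 52.93, 41.31 and 33.26 CPM in control, 41.96, 31.39 and 24.31 CPM with hairpin 1 and 44.96, 36.7 and 28.81 CPM with hairpin 3. In every group library A was highest and library C lowest, and the groups overlapped (pooled log2 -0.29, SE 0.195, 95% interval -0.72 to 0.13, adjusted p = 0.2789). LIG4, the ligase of classical end joining, had the lowest value in this group at -0.40 (95% interval -0.75 to -0.04, adjusted p = 0.08049), while its scaffold XRCC4 was at 0.19 (-0.11 to 0.50). The abundant Ku subunits XRCC5 and XRCC6 were at 0.01 and 0.13, with intervals of -0.21 to 0.23 and -0.07 to 0.33. PRKDC was at 0.00 (-0.38 to 0.39), with means of 502.7, 507.9 and 500 CPM.

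MGMT, which removes alkyl groups from guanine directly, stood at 13.75, 17.67 and 21.51 CPM in control, 18.88, 22.43 and 23.79 CPM with hairpin 1 and 13.18, 15.36 and 19.29 CPM with hairpin 3. In every group library A was lowest and library C highest, the reverse of POLQ. The pooled log2 fold change was 0.10 (SE 0.194, 95% interval -0.33 to 0.52, adjusted p = 0.7491), and the difference of -0.44 between hairpin 3 and hairpin 1 (SE 0.177) did not pass (adjusted p = 0.1367), but passed with the letter as a block (-0.45, adjusted p = 0.004393).

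Genes along several chromosomes shifted together in this comparison, so each member was set beside its neighbours, the 25 tested genes on each side that averaged 10 CPM or more. The rise of ATM ran against its surroundings on chromosome 11, whose median was -0.17, so that ATM stood 0.80 above them. XPC and PARP1 lay among neighbours with medians of 0.01 and 0.00. CHEK1 and XRCC1 were 0.15 and 0.10 below neighbours that were themselves lower. ERCC1 and ERCC2 on chromosome 19 and PRKDC on chromosome 8 had neighbour medians of -0.19, -0.21 and -0.27, and stood 0.12, 0.01 and 0.27 above these. The part of the neighbourhood in any member's value was not tested.

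**Figure D4:**
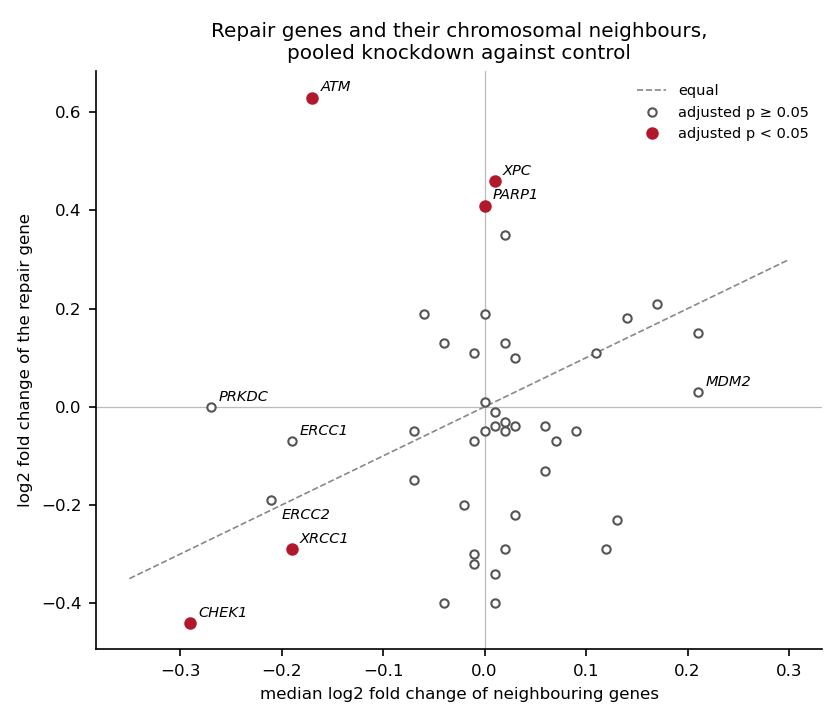
Pooled log2 fold change of each of the 44 repair genes against the median log2 fold change of its chromosomal neighbours, with filled red points at an adjusted p below 0.05 and a dashed line where both are equal. ATM lies at 0.63 over neighbours at -0.17, CHEK1 and XRCC1 lie a little below the line at negative values of both, and PRKDC lies at 0.00 over neighbours at -0.27.

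Several repair genes start head to head with a gene on the other strand. Under a definition added after the members' values were seen (opposite strands, 5′ ends at most 1000 bases apart, both tested), 17 members had such a partner. In the pooled comparison 2 partners rose, 0 fell, and in 0 pairs did both genes pass by edgeR's test. NPAT, a histone gene activator whose 5′ end lies 158 bases from that of ATM, was at -0.06 (adjusted p = 0.6902) while ATM rose by 0.63. LSM3, an RNA processing factor 425 bases from XPC, was at -0.03 (adjusted p = 0.8377) while XPC rose by 0.46. The partners that rose were ERC1, 456 bases from RAD52 (0.89, adjusted p = 5.753e-05), and MAP1A, 230 bases from TP53BP1 (1.70, adjusted p = 0.02022), beside members at 0.21 and -0.05 that did not pass. The partners are named outside the rule for named genes.

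The same pathways were then read in genes outside the 44, beside the 15.9% of all tested genes that rose and the 17.0% that fell in the pooled comparison. In homologous recombination 1 of 21 other tested genes rose and 2 fell, with the adaptor SWI5 at 0.60 (adjusted p = 0.009107), the junction nuclease subunit MUS81 at -0.74 (adjusted p = 0.0001597) and SFR1 at -0.52 (adjusted p = 0.04753), and the median was -0.13. In the Fanconi anemia pathway 1 of 9 rose (WDR48, a cofactor of the deubiquitinase, at 0.34) and 1 fell (STRA13 at -0.27), with a median of 0.04. In nucleotide excision repair 0 of 15 rose and 2 fell, UVSSA of the transcription-coupled branch at -1.01 (adjusted p = 0.003929) and the ligase LIG1 at -0.29, with a median of -0.10. In mismatch repair 1 of 3 rose (MLH3 at 0.34) and 1 fell (MSH3 at -0.40).

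In base excision repair 1 of 19 other genes rose and 2 fell, with a median of -0.09. The gap-filling polymerase POLB fell from a mean of 41.29 CPM in control to 17.24 and 16.08 CPM with hairpins 1 and 3 (log2 -1.31, SE 0.0922, adjusted p = 5.926e-07), a larger change than that of any of the 44. TDP1, which removes trapped topoisomerase, was at 0.33. In end joining 2 of 5 rose and 1 fell, with the polymerase POLM at 1.06 (adjusted p = 0.001214), C9orf142 at 0.36 and the polymerase POLL at -0.44. In translesion synthesis 1 of 10 rose, the ubiquitin ligase RAD18 at 0.44, and 0 fell. In checkpoint signalling 1 of 21 rose, the phosphatase CDC25B at 0.84 (adjusted p = 6.116e-06), and 1 fell, the clamp subunit RAD9A at -0.99 (adjusted p = 4.265e-05).

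Of 23 genes induced by the transcriptional damage response that MDM2 restrains, a list that holds the members XPC and MDM2, 2 rose and 5 fell in the pooled comparison, with a median of -0.12. The cyclin-dependent kinase inhibitor CDKN1A averaged 611.8 CPM in control and 289.7 and 330.7 CPM with hairpins 1 and 3 (log2 -0.98, SE 0.15, adjusted p = 0.000336), SESN2 was at -0.81 and FAS at -0.60. With hairpin 1 alone 1 gene of the list rose and 8 fell, and with hairpin 3 alone 6 rose and 6 fell. For platinum transport and thiol conjugation 3 of 15 tested genes rose and 0 fell in the pooled comparison, namely the metallothioneins MT1E (2.06, adjusted p = 0.005239) and MT2A (1.10, adjusted p = 0.00252), which bind metals, and the glutathione transferase GSTM3 (1.92, adjusted p = 0.003476). The metallothionein MT1F, named outside the rule for named genes at a mean of 0.7927 CPM, went the other way. It was at -1.41 in the pooled comparison (adjusted p = 0.05969) and -2.32 with hairpin 3 (adjusted p = 0.006367). With hairpin 1 alone 7 of the 15 tested genes rose and 2 fell, and with hairpin 3 alone 3 rose and 4 fell. Of all 15975 tested genes, 2878 rose and 3154 fell with hairpin 1, and 2651 rose and 2885 fell with hairpin 3.

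The summed level of the repair genes also moved with the letter of the library, though not in every pathway. The summed level of the 44 members was 3993 CPM in control library A against 3382 and 3483 in B and C, 4259 against 3455 and 3532 with hairpin 1, and 4112 against 3695 and 3425 with hairpin 3. PRKDC, XRCC5, PARP1 and XRCC6 weighed most in these sums (629.9, 617, 455.3 and 450.3 CPM in control library A). The sum for nucleotide excision repair went the other way, as did MGMT, and was lowest in library A in each group. It was 181.5, 189.7 and 208.8 CPM in control libraries A, B and C. With hairpin 1 it was 174.8, 183.4 and 188.3 CPM, and with hairpin 3 it was 172.2, 192.3 and 215.7 CPM. Checkpoint signalling with hairpin 1 was highest in library B (481.6 CPM, against 438.9 CPM in A). Library A was the highest of its group for 29, 30 and 24 of the 44 members in control, hairpin 1 and hairpin 3, and the lowest for 9, 9 and 16. The share of all tested genes highest in library A was not counted, so this is not shown to be particular to the repair genes. A list of 20 S phase and proliferation genes moved in the same way, with sums of 3970, 3326 and 3274 CPM in control libraries A, B and C, 3820, 2706 and 2867 CPM with hairpin 1 and 3808, 3330 and 2831 CPM with hairpin 3. Of those 20 genes 0 rose and 4 fell in the pooled comparison, where 17.0% of all tested genes fell. With hairpin 1 alone 7 fell and with hairpin 3 alone 3, beside 3154 and 2885 of all 15975 tested genes. Those that fell in the pooled comparison included the S phase cyclin CCNE1 (-0.99, adjusted p = 0.0003176), the replication licensing factor CDC6 (-0.62) and the ribonucleotide reductase subunit RRM2 (-0.48), and the median of the 20 was -0.23. What the letters stand for is not given in the labels. Without the 3 replicate A libraries, a choice made after seeing the data, 3 members passed in the pooled comparison (ATM, CHEK1 and PARP1) and 8 with hairpin 1. Of all genes tested there, 26.7% passed in the pooled comparison and 40.8% with hairpin 1.

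**Figure D5:**
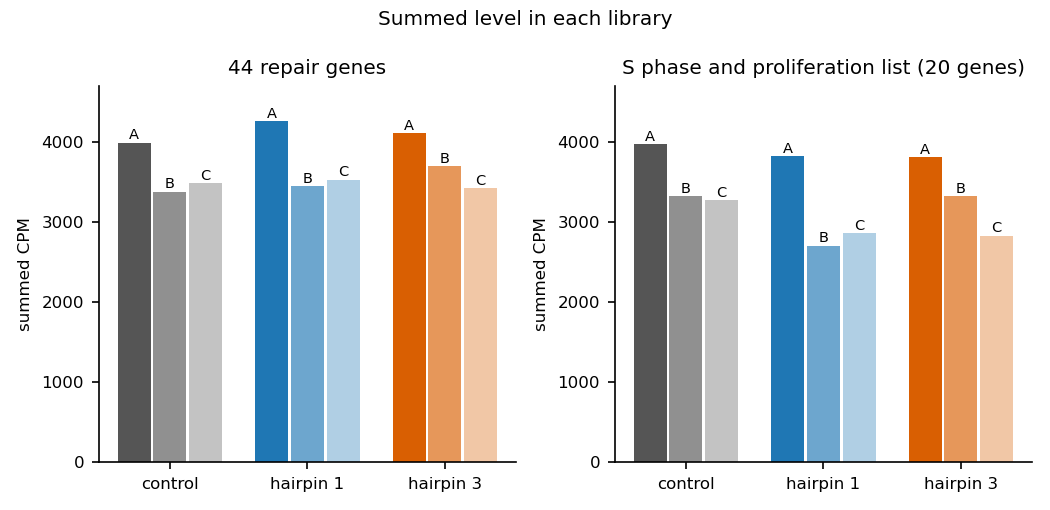
Summed CPM of the 44 repair genes (left) and of 20 S phase and proliferation genes (right) in each of the 9 libraries, bars from 0, letters naming the replicate. Library A has the tallest bar of its group in both panels, from 3993 to 4259 CPM for the repair genes, whereas the 3 groups reach similar heights on the left.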

How the data were processed

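The labels describe poly(A)-selected, non-directional RNA libraries. Per the labels, the submitters' processing notes name HISAT2 2.0.5, featureCounts 1.5.0-p3 and hg38. The deposited values are raw read counts per gene, unnormalized and unfiltered by the authors, together with gene positions and a gene length, and 39 of the 44 members have identical positions in GENCODE 29 (95.2% of all genes). The study's methods describe 3 biological replicates per condition and pool both hairpins as 1 knockdown arm.

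Library totals were 16850854 to 23890191 counts. Genes were filtered with filterByExpr of edgeR 4.0.16 (minimum count 10, minimum total 15), which left 15975 genes with 99.889% of the counts. TMM factors, glmQLFit and glmQLFTest in R 4.3.3 gave log2 fold changes, standard errors (the fold change over the root of F), and Benjamini-Hochberg adjusted p-values over all 15975 genes, and a gene was called at an adjusted p below 0.05. The pooled comparison used 2 arms, the others a 3-group model. Intervals and values cover the spread between these libraries only. Alternatives left out each library, set the letter as a replicate block, dropped the filter or kept genes averaging 1 CPM, scaled by library totals or by the size factors of DESeq2 1.42.0, ran its Wald test, tightened the thresholds (adjusted p below 0.01, or an absolute log2 fold change of 1), pooled the hairpins within the 3-group model and fitted the compared groups alone. Leaving out all replicate A libraries was added after seeing the data. Deviations of same-letter libraries from their group means were correlated over 9693 genes. All 3 pairs exceeded 0.1 for hairpin 3 with control (0.339 to 0.634) and with hairpin 1 (0.121 to 0.678), so blocked values stand beside those comparisons, whereas hairpin 1 with control fell to 0.064. Pairs of different letters ran from -0.672 to 0.327, so the lowest same-letter values lie within their range. The statistics were tested on simulated data without a letter effect or a difference between the hairpins. The conditions set there covered only log2 changes of at least 1 in size, which no member reached.

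The members, pathway lists and marker lists were chosen with earlier results of these data known. Every member is named. Full values are given for BRCA1, BRCA2, ATM, CHEK1, FANCD2, ERCC1, PARP1, POLQ, MGMT and MDM2, for members called in the pooled comparison (at most 8 in each direction) and for members called between the hairpins. From each other list at most 3 called genes averaging 1 CPM or more are named, those with the largest pooled change. Values of some genes of these lists are not reported here. Promoters came from RefSeq (GRCh38), matched by symbol and chromosome, the entry nearest to the start in the count table, and 9 members had no entry within 1000 bases. Per-sample columns left unused numbered 0.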

Additional observations from a re-analysis of the deposited data

Results flagged for a closer look

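Of the 44 members, 6 had 1 knockdown library set apart from the other 5 by Dixon's 95% criterion (the gap to the nearest library over the whole range), which chance gives in about 1 of 20 groups. Hairpin 1 library B stood highest for ATM (86.84 CPM), XPC (20.5 CPM) and TP53BP1 (72.39 CPM). Hairpin 1 library A stood highest for XPA (17.01 CPM) and lowest for LIG3 (32.01 CPM), and hairpin 1 library C stood highest for XRCC1 (43.22 CPM). Without hairpin 1 library B the pooled calls of ATM and XPC remained. The 6 libraries belong to 2 hairpins, so a gap can also lie between hairpins.

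The effects of the hairpins differed by edgeR's test of the difference itself for 2 members. MDM2 was higher with hairpin 3 than with hairpin 1 by 0.52 on the log2 scale (adjusted p = 0.02056, higher in 3 of 3 libraries) and FANCG by 0.39 (adjusted p = 0.0341, higher in 3 of 3 libraries).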

How the results depend on the processing

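In the pooled comparison 5 members were called, and the count was 4 to 7 under DESeq2's Wald test, its size factors, library totals, either other filter and the 3-group model. In those fits 16.5% to 40.1% of all genes passed. At an adjusted p below 0.01 it was 1 (ATM) in the pooled comparison, 3 for hairpin 1, 0 for hairpin 3 and 0 between the hairpins. Of all tested genes 21.2%, 26.6%, 23.9% and 5.68% passed there in the same order. Where an absolute log2 fold change of 1 was required beside an adjusted p below 0.05, the count was 0 in all 4. Of all tested genes 14.7%, 16.3%, 15.3% and 3.93% met that rule in the same order. Without a filter hairpin 1 gave 8 members (beside 20.3% of all genes in that fit), and the fit of the 2 hairpin groups alone gave 1 between the hairpins (MDM2, beside 10.5%). Without the replicate A libraries the counts were 3 for the pooled comparison (beside 26.7% of all genes tested there), 8 for hairpin 1 (beside 40.8%), 5 for hairpin 3 and 3 between the hairpins. The share of all genes is not given for hairpin 3 and between the hairpins, so those counts are not set against it. With each library left out in turn the counts ran from 2 to 5 (pooled), 4 to 7 (hairpin 1), 2 to 8 (hairpin 3) and 0 to 2 (between the hairpins). In these fits 29.8% to 38.4% of all tested genes passed with hairpin 1. For hairpin 3 the lowest count came without control library B, beside 27.3% of all tested genes. The lowest pooled count came without control library A or B, where the share of all tested genes was also lower (26.9% and 22.9%, against 33.0% in the main fit). Leaving out hairpin 1 library C or hairpin 3 library A gave 0 between the hairpins, beside 8.08% and 10.7% of all tested genes.

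With the replicate letter as a block, 11 members were called in the pooled comparison (3 higher, 8 lower, the 5 above among them), 16 for hairpin 1, 15 for hairpin 3 and 5 between the hairpins, beside 36.1%, 48.8%, 45.6% and 23.1% of all tested genes. BRCA1 (adjusted p = 0.04711), BARD1, FANCC, FANCI, LIG4 and POLQ joined the pooled calls, each lower. For hairpin 1 those that joined were BARD1, BRCA1, ERCC2, ERCC4, FANCE, FANCI, MDM2, MGMT, PMS2, POLQ and XRCC1. In the labels the letters share only a name. Same-letter libraries of control and hairpin 1 correlated at 0.064 to 0.621, so the block is not read as a pairing there or in the pooled comparison. Of the 9 libraries 8 correlated best with their own letter, a hint from the data and not the design.

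MPZL3 was called under every alternative run. ATM held in all 17 alternatives of the pooled comparison, and no called member changed sign. Of the 39 members not called, 8 were called in at least 1 alternative, and 15 changed sign near 0 without a call. Intervals cover the spread between these libraries only.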
